A study of Bos taurus with 68 samples.

Results

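The livers of 5 cows, numbered 6934, 6983, 7079, 7186 and 7188, were compared on day 1 after calving with the same livers on day -30 before calving. Of the 68 arrays of the series, 20 belonged to this comparison, 10 for each day, and together they made up 10 of 34 cow-days. All arrays of the larger of the deposited value tables that the labels assign to day 1 or to day -30 were used, and each cow was set against itself. Every array held liver cDNA in one dye and cDNA of a reference standard RNA in the other, and each cow-day was hybridised 2 times, once per dye orientation. Values are log2 ratios centred on the median of each array and averaged to 1 value per clone, cow and day, where a clone is a spotted cDNA. The study followed these animals over 7 days from day -65 to day 49, and the other days entered to estimate the spread and, for a side comparison, as a mean over days. The labels give no breed, age, parity, diet or treatment, and what the reference RNA was made from is not given in the sources used here.

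Around calving the bovine liver shifts from supporting gestation to supporting milk secretion: it raises glucose output, takes up fatty acids released from adipose tissue, and oxidises, exports or stores them. The growth hormone axis of the liver becomes partly uncoupled in this period, and calving is often accompanied by an acute phase response, in which hepatocytes change their output of plasma proteins. Hepatocytes also carry most of the body's conjugating and oxidising enzymes for foreign and endogenous compounds, while Kupffer cells are the resident macrophages of the organ.

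The direction of all ratios is only likely. The labels give each sample's dye and leave the numerator open, and the signs below assume that Cy5 was divided by Cy3. With the inverse ratio every sign turns and every "lower" reads "higher". Under this assumption 6 of 7 genes enriched in hepatocytes had mean ratios above 0, and 23 of 30 stellate cell, fibroblast and matrix genes had ratios below 0. The 20 arrays had between 15186 and 16288 of 16416 rows measured, with array medians from -0.948 to 0.233 before centring. The exchanged arrays opposed each other, meaning an r below 0 across clones before turning, in 9 of 10 cow-days. Day 1 of cow 7079 was the exception (r = 0.0681). The opposition was weak, from -0.476 for cow 7186 to -0.066 for cow 7188, both on day -30. Of all 30 cow-days in the fit, which include the other days, 25 opposed. Arrays of 1 dye orientation correlated with each other at 0.298 or more (median 0.594). Such arrays share the dye as well as the tissue, so these values do not show how well the exchanged arrays match. The standard deviation of the ratios across clones differed between cow-days, from 0.574 for cow 6934 to 1.12 for cow 7186, both on day -30. With 5 cows on 20 arrays, the 95% interval of the median clone reached 0.487 to either side on the log2 scale.

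A single clone differed between the days, out of 5279 clones tested in limma with the cow as a block. It represents LOC327709, a glutathione S-transferase of the mu class, and makes up 0.0189% of the clones tested at an adjusted p under 0.05. No other gene named below passed, so their differences are given as estimates and not as changes. Before adjustment, 374 clones (7.08%) had a p under 0.05 with a lower value on day 1 and 68 clones (1.29%) with a higher one. The value was lower in all 5 cows for 288 clones (5.46%) and higher in all 5 cows for 120 clones (2.27%). Of all estimates 57.2% lay below 0, the median was -0.06, and the range ran from -1.78 to 1.19.

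This lean towards lower values depended on the centring and on the dye. Of the clones with an unadjusted p under 0.05, 84.6% were lower on day 1 with median centring, 70.8% when arrays were centred on clones measured on every array and 48.1% without centring. Without centring the median of all clones moved by 0.12, to 0.07. The share was 76.5% on arrays with liver in Cy3 and 43.1% on arrays with liver in Cy5, and 62.9% after quantile normalization. Across clones, the mean differences from the 2 dye orientations correlated at only 0.169, and the differences of 2 cows correlated between -0.256 and 0.352. The 3926 clones with a mean ratio between -0.5 and 0.5 had a median difference near 0 (50.3% below 0), although 202 of them were lower and 59 higher at an unadjusted p under 0.05. Clones farther from the reference lay lower as a whole: the 231 clones below -1 had a median of -0.33 (83.1% below 0) and the 243 clones above 1 a median of -0.38 (84% below 0).

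**Figure D1:**
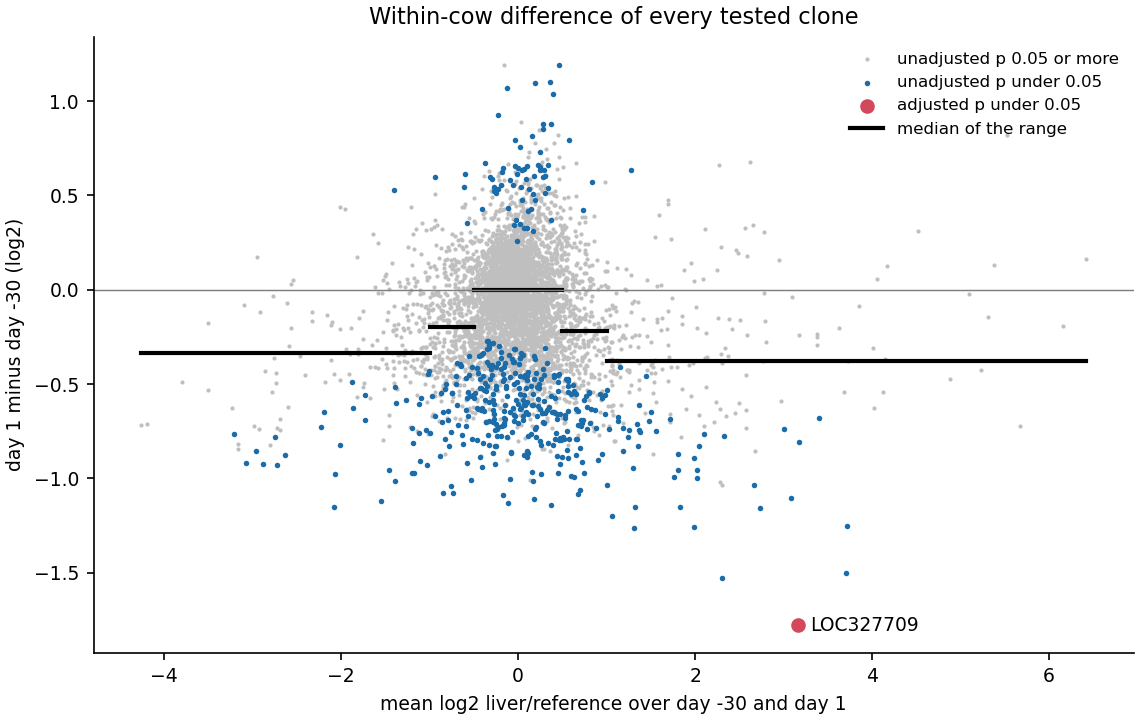
Difference between day 1 and day -30 (log2, vertical axis) of the 5279 tested clones against their mean log2 liver/reference ratio over both days (horizontal axis), with signs in the likely direction. Grey and blue points are clones with an unadjusted p above and under 0.05, the red point is LOC327709 at -1.78, and black bars are medians over 5 ranges of the ratio, from -0.33 and -0.38 at the ends to near 0 in the middle.

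LOC327709 encodes an enzyme that conjugates glutathione to electrophiles. The gene table of the ARS-UCD2.0 assembly lists it with the synonym GSTM1 and places it between LOC615514 and GSTM2, in a cluster of mu class genes whose related transcripts a cDNA clone may also bind. On day -30 its log2 ratio was 3.56 in cow 6934, 3.22 in cow 6983, 4.34 in cow 7079, 5.19 in cow 7186 and 3.93 in cow 7188. On day 1 the values were 2.02, 1.90, 2.52, 2.76 and 2.15 in the same order. All 5 values of day 1 lay below all 5 values of day -30, and the cows kept the same order on both days. The mean went from 4.05 ± 0.76 (SD, n = 5) to 2.27 ± 0.36 and so fell by 1.78 ± 0.25 (SE), which is 3.43-fold (95% interval of the log2 difference -2.30 to -1.25, limma, adjusted p = 0.00203). Calving and the onset of lactation both fall between these days and cannot be told apart, and in a bulk liver sample fewer cells of a type and less RNA per cell cannot be told apart.

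Both dye orientations gave the fall of LOC327709 in 5 of 5 cows, with means of -1.92 for liver in Cy3 and -1.63 for liver in Cy5. It fell by 1.54 in cow 6934 and by 1.78 in cow 7188, whose ratios were more spread on day 1, and by 1.82 and 2.43 in cows 7079 and 7186, whose ratios were less spread. Its spot values ran up to 5.25 in size, and 8 of 40 were over 4, all of them on day -30, in cows 7079, 7186 and 7188. On that day cow 7188 had -3.15 and -3.02 with liver in Cy3, but 4.82 and 5.25 with liver in Cy5. Many far values of other spots were coarse. On these arrays 57.8% of the 1489 values with a size of 5 or more and a ratio under 200 equalled, within 5e-04, the log2 of a whole number in size. The spots of LOC327709 of that size were -5.03 and 5.25, and neither equalled such a log2. Set against the mean of the other days, neither day passed for this clone. Day 1 differed from that mean by -1.06 ± 0.20 (SE, adjusted p = 0.107) and day -30 by 1.02 ± 0.20 (adjusted p = 0.177). These comparisons share samples with the first. In either of them 0 of 5279 clones passed in limma, against 202 and 361 clones at an unadjusted p under 0.05. The call was lost without cow 7188 (adjusted p = 0.109), with either dye orientation alone (0.107 and 0.311), with only the 10 cow-days in the fit (0.139) and after quantile normalization (estimate -1.36, 0.276).

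**Figure D2:**
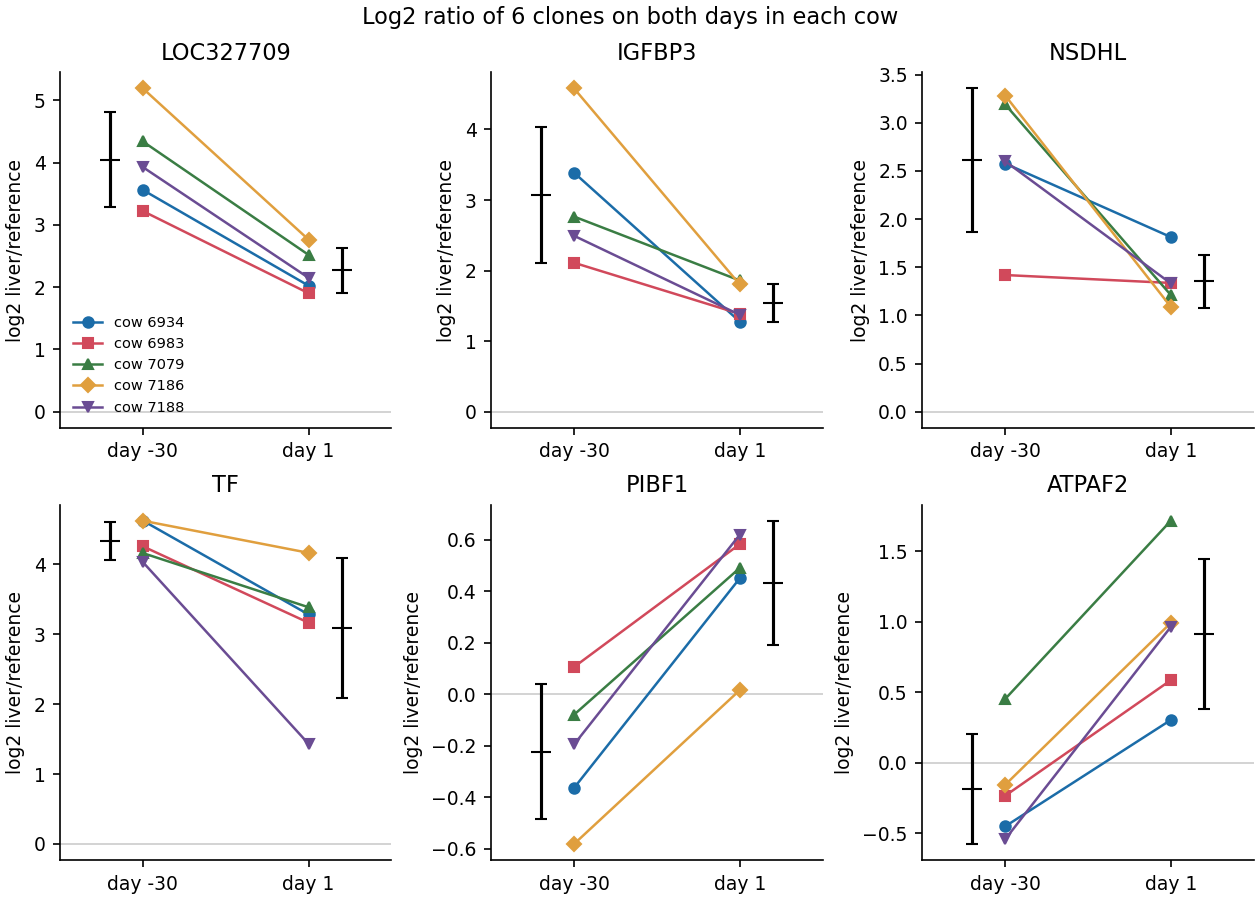
Log2 liver/reference ratio (vertical axis, scale differs between panels) of 6 clones on day -30 and day 1, with 1 line per cow and the mean ± SD of 5 cows in black beside each day, with signs in the likely direction. LOC327709 passed the test and went from 4.05 to 2.27, and IGFBP3 (the clone with the lowest p), NSDHL, TF, PIBF1 and ATPAF2 ran the same way in 5 of 5 cows without passing it.

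The other genes of conjugation, glutathione and antioxidant defence had mostly lower estimates on day 1. Without LOC327709, 25 of 32 genes lay below 0 against 57.2% of all clones, the median was -0.21, and 5 were lower and 0 higher at an unadjusted p under 0.05, none past the adjusted threshold. Over all clones the shares at that unadjusted p were 7.08% lower and 1.29% higher. These shares and the 57.2% are the background for every list below. With LOC327709 included, the median was below 0 in each cow, from -0.26 to -0.11, and -0.36 and -0.07 in the 2 dye orientations. AOX1, aldehyde oxidase, went from 4.45 ± 0.94 (SD, n = 5) to 2.95 ± 0.98, an estimate of -1.50 ± 0.48 (SE, adjusted p = 0.408), lower in 5 of 5 cows. Its values overlapped, since cow 7079 had 3.71 on day 1 and cow 6934 had 3.54 on day -30. PRDX6, a peroxiredoxin with phospholipase activity, had an estimate of -0.48 ± 0.16. Among its members with higher values KEAP1, the sensor that holds back NRF2, had the smallest p, at 0.20 ± 0.18.

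Of the clones lower in all 5 cows, the one next to LOC327709 by p names IGFBP3, the main carrier of insulin-like growth factors in blood. Its ratio was 3.39, 2.11, 2.77, 4.58 and 2.49 on day -30 and 1.28, 1.39, 1.86, 1.80 and 1.37 on day 1 (cows in the order above). All values of day 1 lay below all values of day -30, and the estimate was -1.53 ± 0.31 (SE, adjusted p = 0.130). The other 2 clones of IGFBP3 gave 0.58 ± 0.35 and -0.26 ± 0.17, so the clones disagree. The clone at 0.58 was higher in 5 of 5 cows, but its mean was 1.62 with liver in Cy3 and -0.45 with liver in Cy5. The direction of IGFBP3 is therefore not settled by these arrays.

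NSDHL, a dehydrogenase of late cholesterol synthesis, was lower in 5 of 5 cows. It had 2.58, 1.42, 3.19, 3.28 and 2.60 on day -30 and 1.81, 1.34, 1.21, 1.09 and 1.33 on day 1. The estimate was -1.26 ± 0.30 (SE, adjusted p = 0.219), and cow 6983 moved by only -0.08, so the days overlapped through that cow. TF, transferrin, the plasma iron carrier made by hepatocytes, had 4.63, 4.26, 4.16, 4.62 and 4.03 on day -30 and 3.28, 3.17, 3.39, 4.16 and 1.43 on day 1. Its estimate of -1.25 ± 0.34 (adjusted p = 0.320) rested most on cow 7188, and cow 7186 on day 1 overlapped the range of day -30.

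The other clones lower in 5 of 5 cows and named by p had varied roles. GGT1, which starts the breakdown of glutathione outside cells, had an estimate of -1.14 ± 0.26 (SE, adjusted p = 0.189), but its other clone gave 0.22 and was higher in 5 of 5 cows. IVD, which oxidises isovaleryl-CoA in leucine breakdown, was at -0.95 ± 0.24 (other clone -0.44). GALM, the mutarotase that prepares galactose for use, was at -1.27 ± 0.33 (other clone -0.28). NAXE, which repairs damaged NADH and NADPH, was at -0.81 ± 0.19. The actin regulators BRK1, a subunit of the WAVE complex, and ARPC1A, a subunit of the Arp2/3 complex, were at -0.78 ± 0.18 and -0.67 ± 0.17. For BRK1 the orientations gave -1.14 (Cy3) and -0.41 (Cy5). ARSL, a sulfatase, was at -0.83 ± 0.20, TNPO2, a nuclear import receptor, at -1.09 ± 0.26 and RPLP1, a protein of the ribosomal stalk, at -0.70 ± 0.18. Adjusted p over these clones ran from 0.189 to 0.320.

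Clones higher in all 5 cows were fewer than those lower in all 5. PIBF1, first described as a factor induced by progesterone and also a centrosomal protein, had -0.36, 0.11, -0.08, -0.58 and -0.19 on day -30 and 0.45, 0.58, 0.49, 0.02 and 0.62 on day 1. Only cow 7186 on day 1 lay within the range of day -30. The estimate was 0.65 ± 0.14 (SE, limma, adjusted p = 0.159), with means of 0.68 and 0.62 in the dye orientations. Within each orientation, however, 1 of 5 cows was lower. The differences had an SD over cows of 0.87 (Cy3) and 0.68 (Cy5), against 0.15 after averaging both, so single cows did not match between orientations. ATPAF2, an assembly factor of ATP synthase, was at 1.10 ± 0.33 (Cy3 1.13, Cy5 1.07). Its SD over cows was 0.95 (Cy3) and 1.13 (Cy5), against 0.31 after averaging both. MCUR1, a regulator of mitochondrial calcium uptake, was at 0.62 ± 0.22, but 0.07 with liver in Cy3 against 1.18 with liver in Cy5. SLC25A6, an exchanger of ADP and ATP, was at 0.37 ± 0.14.

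SIPA1L1, a GTPase-activating protein for Rap, had the highest estimate of these at 1.19 ± 0.38 (SE), with 1.05 and 1.33 in the dye orientations. Its SD over cows was 0.94 (Cy3) and 1.10 (Cy5), against 0.70 after averaging both. TRAPPC11, of a vesicle tethering complex, was at 0.60 ± 0.17, NELFB, of the negative elongation factor, at 0.65 ± 0.21 and POFUT2, which adds fucose to secreted proteins, at 0.43 ± 0.15. TTC5, a cofactor of p300, was at 1.07 ± 0.36, with an SD over cows of 0.92 (Cy3) and 1.72 (Cy5). SNRK, a kinase of the AMPK family, was at 0.57 ± 0.21. For SNRK the orientations gave 1.07 (Cy3) and 0.07 (Cy5). TMEM80 was at 0.85 ± 0.23, with 1.40 for liver in Cy3 and 0.30 for liver in Cy5. S100G, a calcium-binding protein, was at 0.51 ± 0.20, but its orientations differed in sign with 1.45 and -0.43. Adjusted p over the clones higher in 5 of 5 cows ran from 0.159 to 0.525. Among them only NELFB had no lower cow in either dye orientation taken alone.

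The metabolic genes for which the transition cow is known gave no uniform picture. ACSL1, which activates long-chain fatty acids, had 1.94 ± 1.37 (SD, n = 5) on day -30 and 2.60 ± 0.77 on day 1, an estimate of 0.66 ± 0.50 (SE). Cow 6934 went from -0.10 to 3.23, and without it the estimate was -0.0056. CPT1A, the gate for fatty acid entry into mitochondria, was at 0.27 ± 0.37 by one clone and at -0.76 ± 0.30 by the other, which was lower in 5 of 5 cows. For the first clone, too, the sign rested on cow 6934, with an estimate of -0.19 without it. PDK4, the brake on pyruvate oxidation, was at -0.15 ± 0.40, ACADVL, of very long chain fatty acid oxidation, at 0.14 ± 0.23, and PC, pyruvate carboxylase, at -0.11 ± 0.22. NOCT was at -0.39 ± 0.26, PER1, a clock gene, at -0.12 ± 0.21, and APOA1, of high density lipoprotein, at 0.17 ± 0.20. The 95% intervals of these genes included 0, apart from the second clone of CPT1A. PCK1, G6PC1, GHR, IGF1, IGFBP1, IGFBP2, ANGPTL4, FGF21, APOB, SAA3 and HP were not analysed here.

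Fatty acid oxidation and ketogenesis genes (15 tested, all above the reference) were below 0 in 9 cases. Their median of -0.15 became 0.11 after quantile normalization, and none of the clones entered had an unadjusted p under 0.05 in limma. CPT1A entered by its clone at 0.27, while its other clone at -0.76 had an unadjusted p of 0.0194 in limma. The cows went apart, with medians of 0.91 in cow 6934 and 0.01 in cow 6983 against -0.76 in cow 7079 and -0.58 in cow 7186. CPT2, the inner membrane carnitine transferase, was at 0.44 ± 0.29 (SE), and ACADS, of short chain oxidation, at -0.65 ± 0.42. Genes of fatty acid and triglyceride synthesis and lipid droplets lay below 0 in 4 of 12 cases with a median of 0.06. There SREBF1, a master regulator of lipid synthesis, was at 0.65 ± 0.51 and higher in 5 of 5 cows, and PCYT2, of phospholipid synthesis, was at -0.64 ± 0.30. Of 8 cholesterol and bile acid genes 5 lay below 0, with a median of -0.21 that became 0.04 after quantile normalization.

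Glycolysis, glycogen and pentose phosphate genes lay below 0 in 12 of 18 cases (66.7%, all clones 57.2%) with a median of -0.15. At an unadjusted p under 0.05, 5 were lower and 0 higher (all clones 7.08% and 1.29%). TPI1, triose phosphate isomerase, was at -0.79 ± 0.24 (SE), TKT, transketolase, at -0.83 ± 0.25 and PGAM1, phosphoglycerate mutase, at -0.70 ± 0.24. TPI1 and TKT were lower in 5 of 5 cows, although TPI1 moved in cow 7186 only from -0.06 to -0.07. The estimate of TPI1 was -1.27 with liver in Cy3 and -0.31 with liver in Cy5, for TKT -1.15 and -0.50 and for PGAM1 -1.07 and -0.33. Of 9 genes of gluconeogenesis and its fuel supply, 6 lay below 0 against 57.2% of all clones. Their median of -0.04 became 0.09 without centring and on arrays with liver in Cy5 alone. GOT2, the mitochondrial aspartate aminotransferase, was at -1.15 ± 0.31 and lower in 5 of 5 cows by one clone, but at -0.04 by the other. Urea cycle and amino acid genes lay below 0 in 11 of 14 cases (all clones 57.2%) with a median of -0.25. IVD led them, followed by AHCY, which splits S-adenosylhomocysteine, at -0.74 ± 0.33 and PRODH, of proline breakdown, at -0.80 ± 0.36, each lower in 3 of 5 cows.

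The growth hormone, insulin and IGF axis had the highest median of the lists, 0.16, with 6 of 14 genes below 0 and with IGFBP3 entering by its clone at 0.58. Its genes nearest to a difference ran the other way: GRB10, an adaptor that restrains the insulin receptor, was at -0.80 ± 0.27 (SE, other clone -0.25) and PIK3R1, the regulatory subunit of phosphoinositide 3-kinase, at -0.75 ± 0.29 and lower in 5 of 5 cows. SOCS1, a suppressor of cytokine signalling, was at 0.38 ± 0.22. Glucocorticoid-responsive genes lay below 0 in 13 of 16 cases with a median of -0.20. HSD11B1, which regenerates active cortisol, was at -0.50 ± 0.19 and lower in 5 of 5 cows, with -0.79 and -0.20 in the orientations. FKBP4, a cochaperone of steroid receptors, was at -0.48 ± 0.21, NR3C1, the glucocorticoid receptor, at -0.60 ± 0.35 and DUSP1, a phosphatase induced by glucocorticoids, at 0.26 ± 0.17.

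Macrophage and Kupffer cell markers lay below 0 in 24 of 31 cases (77.4%, all clones 57.2%) with a median of -0.25. At an unadjusted p under 0.05, 8 were lower and 1 was higher (all clones 7.08% and 1.29%). LGMN, a lysosomal protease, had 1.58, 2.44, 3.28, 2.93 and 2.25 on day -30 and 1.63, 0.98, 1.67, 2.23 and 1.22 on day 1, an estimate of -0.95 ± 0.27 (SE). Cow 6934 alone did not go lower. C1QC, a chain of the complement starter C1q made by macrophages, was lower in 5 of 5 cows at -1.16 ± 0.41 (other clone -0.85), from 3.31 ± 1.47 (SD, n = 5) to 2.16 ± 0.55, and cow 7186 went furthest, from 5.61 to 2.67. The other chains of C1q, C1QA and C1QB, were at -0.09 ± 0.44 (SE) and -0.24 ± 0.47. Each was lower in 3 of 5 cows. Their errors were wide, and whether these chains differ from C1QC was not tested. LAPTM5, a lysosomal protein of blood cells, was at -1.11 ± 0.39 and lower in 5 of 5 cows. SLC11A1, a metal transporter of phagosomes, stood apart at 1.04 ± 0.36, higher in 4 of 5 cows. The list median was -0.20 and -0.36 in the dye orientations and from -0.58 to 0.11 over the cows.

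Complement genes lay below 0 in 10 of 11 cases (all clones 57.2%) with a median of -0.21, which became 0.02 after quantile normalization. The list shares the C1q chains with the macrophage markers. C1QC led it too and was the only one at an unadjusted p under 0.05. CD59, which shields cells from complement, was at -0.59 ± 0.31 (SE), and C1R, a protease of C1, at 0.31 ± 0.55. Interferon response and antigen presentation genes lay below 0 in 17 of 24 cases (all clones 57.2%) with a median of -0.21. BOLA-DRB3, a class II histocompatibility chain, was at -0.79 ± 0.31 and CD74, its invariant chain, at -0.79 ± 0.35, while MX1, an interferon-induced antiviral protein, was at 0.15 ± 0.19. CD74 was lower in 5 of 5 cows, from a move of -0.18 in cow 6934 to -1.94 in cow 7079. Of 9 acute phase and coagulation genes 6 lay below 0 with a median of -0.39. After TF the lowest p there was that of IL6R, the interleukin 6 receptor, at -1.15 ± 0.41, lower in 4 of 5 cows. SERPINA3-3, a protease inhibitor of the acute phase, was at 0.16 ± 0.46. Lymphocyte and neutrophil markers lay below 0 in 9 of 13 cases with a median of -0.10 that became 0.02 without centring, and S100A12, a neutrophil calcium-binding protein, was at 0.40 ± 0.35.

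Cytosolic ribosomal protein genes had the highest share of estimates below 0 among the 30 lists. Of 45 tested, 42 lay below 0 against 57.2% of all clones, and the median was -0.35. At an unadjusted p under 0.05, 9 were lower and 0 higher (all clones 7.08% and 1.29%). The orientations differed: the median was -0.67 with liver in Cy3 and 0.0012 with liver in Cy5, while the medians of all clones were -0.11 and -0.04. RPLP1 had -1.02 and -0.39 in the orientations, RPS3 -1.10 and -0.23 and RPL28 -1.18 and -0.19. The cows went apart as well, from -0.87 in cow 7188 to 0.35 in cow 7186. Translation factors followed the same split, with 24 of 31 below 0, a median of -0.19, and -0.39 and 0.05 in the orientations. EIF4H, a helper of the cap-bound helicase, differed from the ribosomal genes in that its orientations matched, at -0.75 and -0.70. The part of the dye in these medians was not tested further.

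**Figure D3:**
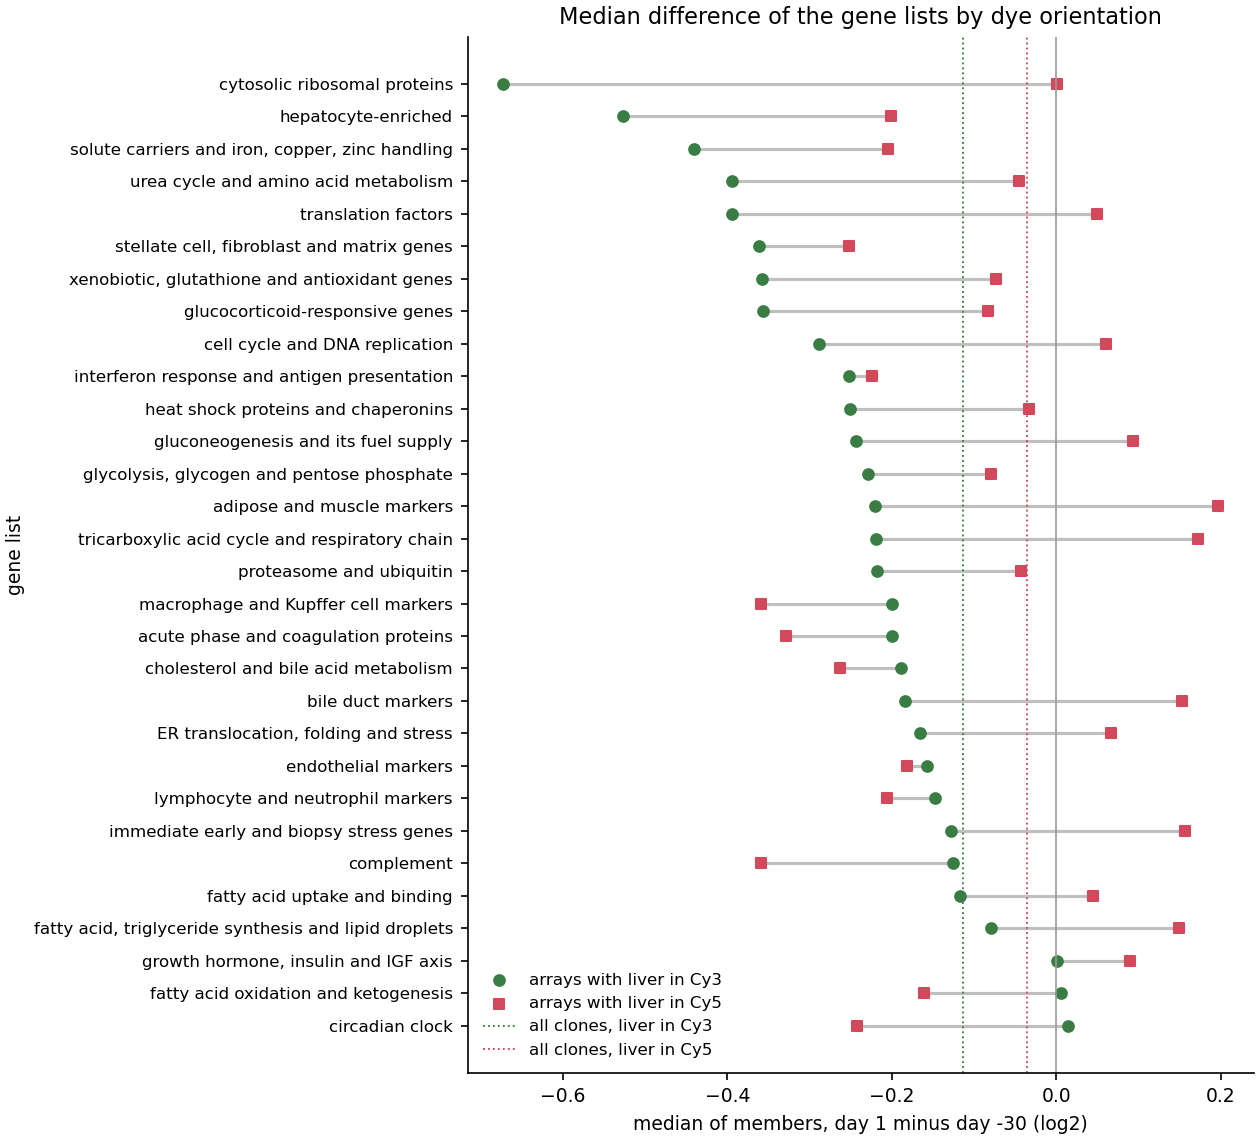
Median over the members of each of 30 gene lists of the difference between day 1 and day -30 (log2, horizontal axis), from arrays with liver in Cy3 (green circles) and with liver in Cy5 (red squares), with signs in the likely direction. Dotted lines are the medians of all clones, -0.11 and -0.04, and the longest gap is that of the ribosomal proteins, from -0.67 to 0.0012.

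Stellate cell, fibroblast and matrix genes, most of them below the reference, were below 0 in 22 of 30 cases with a median of -0.30, which became -0.0027 when arrays were scaled to a common spread. DCN, decorin, a proteoglycan that binds collagen, had -0.21, -1.04, -0.72, 0.51 and -0.09 on day -30 and -2.03, -1.79, -1.40, 0.35 and -2.08 on day 1. It was lower in 5 of 5 cows at -1.08 ± 0.34 (SE), with the smallest move in cow 7186. TAGLN, transgelin of contractile cells, was at -0.97 ± 0.35, and LAMC1, a laminin chain, at -0.61 ± 0.26. PLOD2, which hydroxylates collagen lysines, was at 0.59 ± 0.16 and higher in 4 of 5 cows.

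Cows differed in this list along with the spread of all their ratios. The standard deviation across clones was larger on day 1 in cow 6934 (0.574 to 0.823) and cow 7188 (0.637 to 0.908), close to equal in cow 6983 (0.892 and 0.898), and smaller in cow 7079 (0.967 to 0.739) and cow 7186 (1.12 to 0.811). The matrix list had medians of -1.26 and -0.61 in cows 6934 and 7188, but 0.01 and 0.28 in cows 7079 and 7186. Complement, which lies above the reference, ran the other way, with 1.21 and 0.27 in cows 6934 and 7188 but -1.16 and -1.55 in cows 7079 and 7186. Both of these lists lay further from the reference on day 1 where the spread was larger then. They lay nearer to it, or no further, where the spread was smaller. Fatty acid oxidation and hepatocyte-enriched genes, mostly above the reference as well, did so only in part. Fatty acid oxidation had 0.91 and -0.07 in cows 6934 and 7188, and -0.76 and -0.58 in cows 7079 and 7186. Hepatocyte-enriched genes had 0.23, -0.56, -0.80 and -1.25 in the same order of cows. The part of the spread in the list medians was not tested beyond the scaled alternative. When arrays were scaled to a common spread, 10 clones passed in place of 1, among them LOC327709 (-2.86, adjusted p = 0.0355), IGFBP3, C1QC, LGMN, AOX1 and NSDHL, and the complement median was -0.54.

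**Figure D4:**
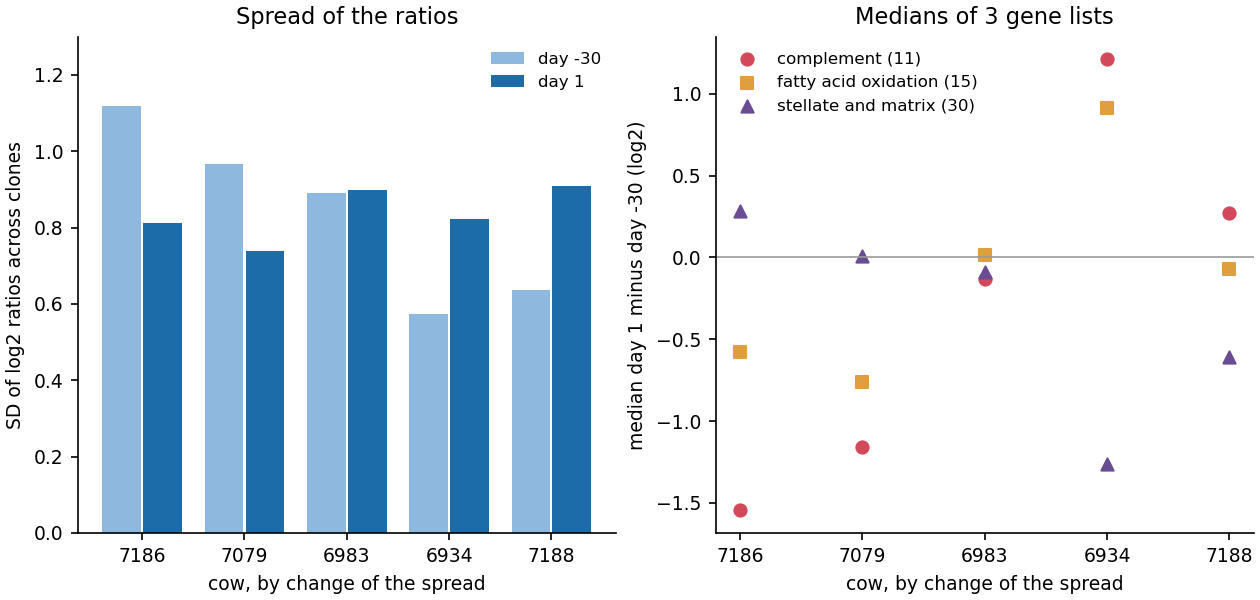
Left, standard deviation of the log2 ratios across clones on day -30 and day 1 in each cow (bars start at 0). Right, median difference between day 1 and day -30 (log2) of complement, fatty acid oxidation and stellate and matrix genes in the same cows, ordered by the change of the spread, with signs in the likely direction; complement runs from -1.55 in cow 7186 to 1.21 in cow 6934, and the matrix genes from 0.28 to -1.26.

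Few lists had the same sign in every cow. In the plot of list medians by cow, the conjugation and antioxidant genes and the interferon and antigen presentation genes lay below 0 in all 5 cows, the latter from -0.62 to -0.02, against medians of all clones from -0.12 to 0.08. Endothelial markers had 8 of 13 genes below 0 (61.5%, near the 57.2% of all clones) with a median of -0.06, which became 0.06 without centring. PECAM1, an adhesion molecule of endothelial cells, was at -0.74 ± 0.30 (SE) and lower in 5 of 5 cows. Bile duct markers had 8 of 16 genes below 0 with a median of -0.01 (0.12 without centring), and adipose and muscle markers 4 of 7 with -0.15. Hepatocyte-enriched genes, which served to check the tissue, had 4 of 7 below 0 with a median of -0.40 that became 0.02 after quantile normalization. Of these ASGR2, a subunit of the asialoglycoprotein receptor, was at 0.68 ± 0.51 and ASS1, of the urea cycle, at -0.40 ± 0.22.

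**Figure D5:**
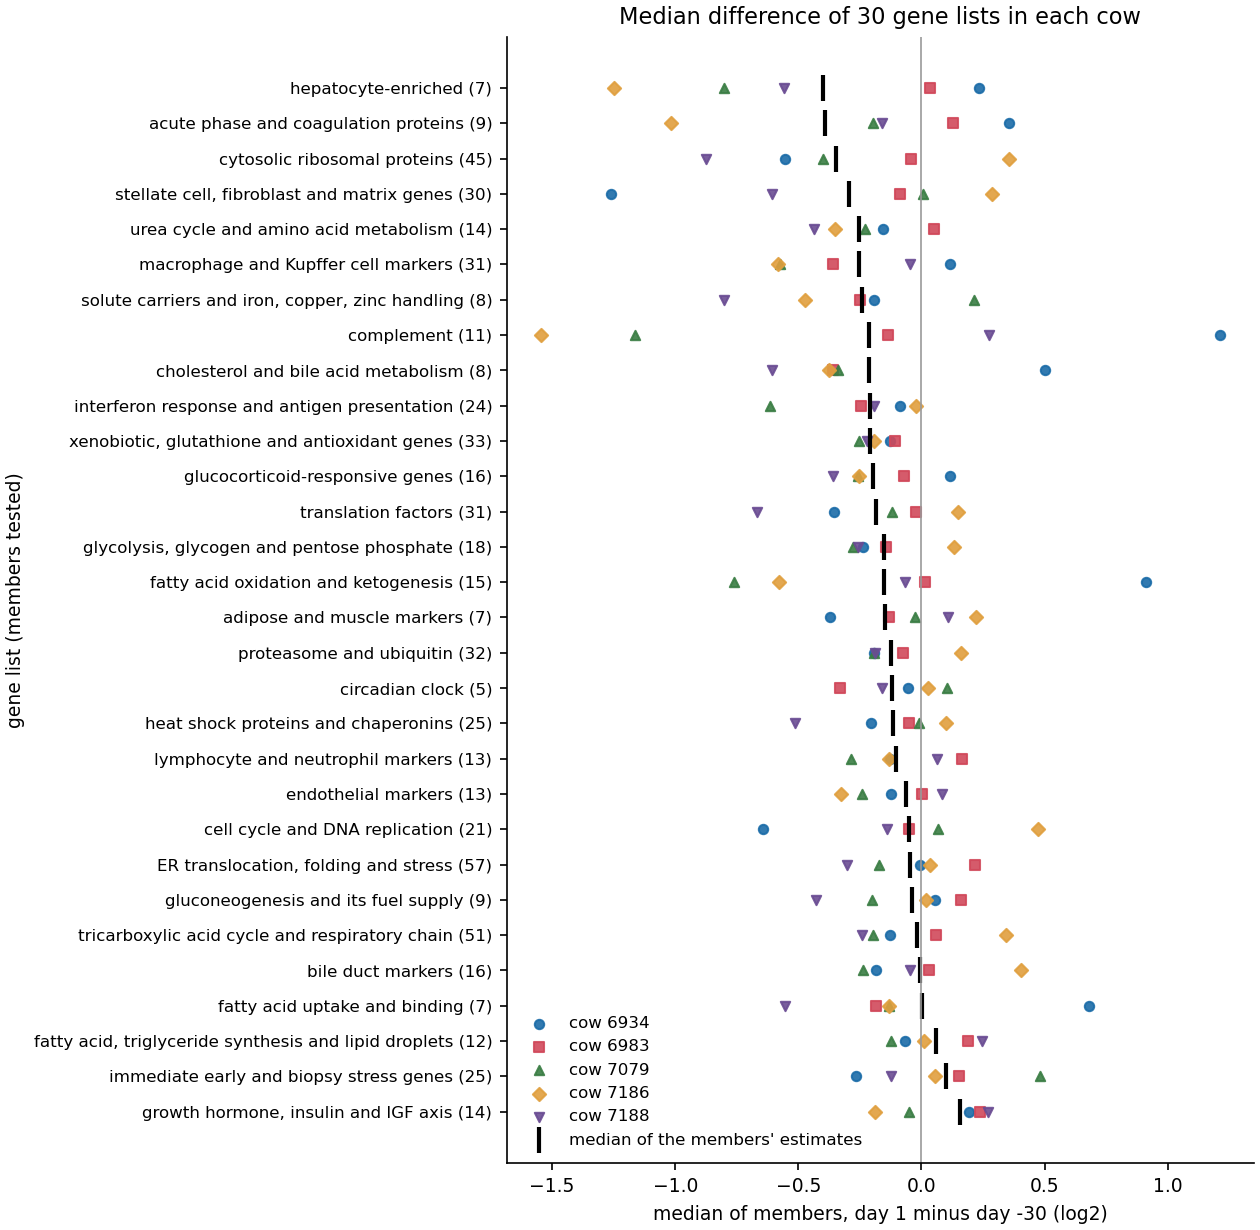
Median over the members of 30 gene lists of the difference between day 1 and day -30 (log2, horizontal axis) in each of 5 cows (coloured symbols) and the median of the members' estimates over cows (black bars), with the number of members tested in brackets, with signs in the likely direction. Complement runs from -1.55 to 1.21 over the cows, and the conjugation and antioxidant genes only from -0.26 to -0.11.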

How the data were processed

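Per the labels, liver and reference cDNA were co-hybridised to 2-colour arrays, scanned on a Scanarray 4000 and quantified with GenePix 4.0. The values deposited by the authors are log2 ratios of the channels per spot, which whole-number ratios among the extreme values bear out. Background subtraction, flags, normalization and the numerator are not stated in the sources used here. The members and gene lists were chosen with earlier results of these data known.

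Each array was centred on its median, arrays with liver in Cy3 were turned, and the 2 spots of a clone and then the exchanged arrays were averaged. Of 16416 rows, 5030 name no clone here and were left out. The other rows are 5693 clones, of which 5598 name 1 gene and 5591 were matched by gene ID to a current symbol. Clones with several genes were tested but not named. A clone needed 3 cows on each day, and differences between days needed both, which kept 5279 clones. limma 3.58.1 in R 4.3.3 was fitted to all 7 days of the table with day and cow as fixed terms, with 19 residual degrees of freedom, and 2-sided p adjusted by Benjamini-Hochberg over all clones at 0.05. The fit was also run on data simulated from its own model, with independent noise and no dye effect. Such data cannot show how it handles the differences in dye and spread seen here. The cow term pairs both days of an animal. An exact paired test over 5 cows could not go below p = 0.0625.

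Named genes were those past the threshold, the 12 clones each way with the smallest unadjusted p among those moving alike in 5 of 5 cows, up to 3 members each way of each list, and a set of transition-period genes. A gene in a list is given by its most completely measured clone. Other clones, which can disagree with it, are given only for some of these genes and not, for instance, for PGAM1, DUSP1 or C1QB. Of 32 lists, 30 had at least 5 genes tested. Lists are described by counts and medians, without a test. The smaller table was not used here. Other settings covered centring, scaling, dye, filters, the cow term and each cow left out.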

Additional observations from a re-analysis of the deposited data

Results flagged for a closer look

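In 3 of 68 groups of 5 cows (34 named clones on each of the days), 1 cow stood apart from the other four by Dixon's gap ratio, against a critical value of 0.71. Chance flags about 1 in 20 groups. IVD was at 2.56 in cow 7186 on day -30, above 1.43 to 1.66 in the others. PIBF1 was at 0.0165 in cow 7186 on day 1, below 0.45 to 0.62 in the others. S100G was at 0.57 in cow 6983 on day -30, above -0.13 to 0.07 in the others. Cow 7186 on day -30 also had the most spread ratios of the 10 cow-days, with an SD of 1.12.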

How the results depend on the processing

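Counts of clones are given as passing the adjusted threshold, then lower and higher at an unadjusted p under 0.05, against 1, 374 and 68. No centring gave 1, 101 and 109, centring on complete clones 105 higher, scaling 10, 491 and 104, only Cy3 1 (TMEM80, not LOC327709), 452 and 139, and only Cy5 0, 222 and 293. With only the 25 of 30 cow-days whose dye-exchanged arrays opposed, the fit gave 43 higher. Array weights gave 2 passing (LOC327709 and PIBF1) and 128 higher. Leaving out spots over 1 apart gave 2 passing (LOC327709 and IGFBP3), 235 and 23, with 1 passing for day 1 against the other days. With deposited values of size over 4 left out 0 passed, since LOC327709 was then not tested. With the 10 cow-days alone 0 passed, with rows without a clone 604 and 133, and after quantile normalization 0, 234 and 138. This last setting and leaving out day 1 of cow 7079 alone (1, 358 and 55) were chosen after seeing the data. Leaving out each cow gave 0 to 1, 249 to 557 and 56 to 96, with 0 and 249 without cow 7188. Without the replicate block for cow the counts were 1, 260 and 52, with LOC327709 at an adjusted p of 0.0233, and no call changed.

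LOC327709 had the same sign in all 22 alternatives that tested it and kept its call in 17, with adjusted p from 0.000592 to 0.311. It lost the call at -1.78 with the 10 cow-days alone, -1.92 in Cy3, -1.63 in Cy5 and -1.36 after quantile normalization, and over the cows left out it ran from -1.89 to -1.61, losing it without cow 7188. Signs turned for PC (0.0149 without centring, 0.0488 in Cy5), PER1 (0.00425 without centring, 0.0005 in Cy3, -0.28 to 0.0717 over cows left out), ACADVL (-0.35 scaled), PDK4 (0.0661 in Cy3, 0.21 with weights, 0.0028 after quantile normalization, -0.47 to 0.34 over cows left out), S100G (-0.43 in Cy5), the higher IGFBP3 clone (-0.45 in Cy5), and CPT1A and ACSL1 without cow 6934 (-0.19 to 0.48 and -0.0056 to 0.99 over cows left out). The causes were not tested. Signal over background was not available, so ratios far from 0 are the least exact.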

Other observations

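Genes of endoplasmic reticulum translocation, folding and stress lay below 0 in 33 of 57 cases with a median of -0.05, which became 0.08 without centring. Members pointed both ways. GANAB, a glucosidase of glycoprotein quality control, was at -0.66 ± 0.20 (SE), DDOST, of the oligosaccharyltransferase, at -0.88 ± 0.28 and LMAN2, a cargo lectin, at -0.68 ± 0.24, each lower in 5 of 5 cows. P4HB, protein disulfide isomerase, was at 0.64 ± 0.22 and higher in 4 of 5 cows, and CRELD2, an inducible folding factor, at 0.47 ± 0.21 and higher in 5 of 5 cows. None passed the adjusted threshold in limma.

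Heat shock proteins and chaperonins lay below 0 in 18 of 25 cases with a median of -0.12 (0.0091 without centring). HSPB8, a small heat shock protein, was at -0.66 ± 0.24. Respiratory chain and tricarboxylic acid cycle genes lay below 0 in 30 of 51 cases with a median of -0.02 (0.11 without centring), and NDUFA10, of complex I, was at -0.66 ± 0.29. Cell cycle genes had 11 of 21 below 0 and a median of -0.05 (0.08 without centring), with CENPA, the centromeric histone, at -0.45 ± 0.15 and lower in 5 of 5 cows. Proteasome and ubiquitin genes had 22 of 32 below 0 and a median of -0.12 (0.0026 without centring). Immediate early and biopsy stress genes had 10 of 25 below 0 and a median of 0.10 (-0.13 in Cy3 alone), with KLF4, an early response factor, at 0.60 ± 0.29 and RHOB, a stress-induced GTPase, at -0.46 ± 0.27. SCP2, a peroxisomal lipid carrier and thiolase, was at -1.02 ± 0.63 and lower in 5 of 5 cows, within its wide error. It belongs to the genes of fatty acid uptake and binding, of which 3 of 7 lay below 0 with a median of 0.004. Of 5 circadian clock genes 4 lay below 0 with a median of -0.12, and of 8 genes of iron, copper and zinc handling and solute carriers, TF among them, 6 with a median of -0.24.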
